A study of Mus musculus with 6 samples.

Results

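A list of 40 genes of iron, heme, zinc and copper handling was described in 4T1, a tumour line from mouse mammary gland, in cultures given TKI258, a kinase inhibitor, or DMSO, its solvent. Of the 40 genes, 39 had a probe set with 1 annotated gene symbol on the array, among 19938 such genes in all, and Slc11a1 was not analysed here. The genes were listed by name, and each gene was read from the probe set with the highest mean signal over all 6 arrays. That choice arose only for Flvcr1, Ncoa4, Slc39a1 and Steap2, which have 2 probe sets each, and the call was the same in both. The list was drawn up with results of these arrays known, and it is not a random sample of metal genes.

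There were 2 groups of 3 arrays, labelled as biological replicates, with no statement whether they came from 1 experiment or several. The TKI258 group received 500 nM TKI258 for 16 h, and the DMSO group received DMSO for the same time. In both, 750000 cells per 10 cm dish had grown for 24 h in DMEM with 10% fetal calf serum, which also stayed in the treatment medium. TKI258, or dovitinib, inhibits tyrosine kinases among the receptors for FGF, for VEGF and for PDGF. A single cell line, dose and time were studied, and in such bulk RNA a smaller number of cells of a type and less RNA per cell cannot be told apart.

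Cells take up iron mainly as transferrin through the transferrin receptor, reduce it in endosomes, store the surplus in ferritin and export it through ferroportin. Iron regulatory proteins bind short hairpins in several of these mRNAs. When iron is scarce they stabilise the transferrin receptor mRNA and block translation of the ferritin and ferroportin mRNAs. Zinc enters the cytosol through the SLC39 (ZIP) family, leaves it through the SLC30 (ZnT) family and is buffered by metallothioneins, whose genes the zinc-sensing factor MTF1 switches on at metal response elements. Copper enters through SLC31A1 and is pumped into the secretory pathway or out of the cell by ATP7A and ATP7B.

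Array values were log2 signals, and differences are TKI258 minus DMSO with SE for the standard error in limma's fit. A gene was called higher or lower at a Benjamini-Hochberg adjusted p below 0.05 over all 19938 genes. Array medians lay between 4.97 and 5.04, and the median over all probe sets and arrays was 5.01. A gene below that last value is called dim here, and its differences are less certain.

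The promoters of 3 genes of the zinc response are shown because these genes, textbook targets of MTF1, did not change in 1 direction. The metallothionein genes Mt1 and Mt2 were higher after TKI258, and the zinc exporter gene Slc30a1 was lower (values follow). Capitals mark the core of the metal response element, TGCACNC or TGCGCNC, searched on both strands with overlapping matches merged. The sequences are RefSeq's, build GRCm38.p6, plus strand, 5′ to 3′. The Mt2 stretch, chr8:94172368-94172617, is the 250 bases before the start site. For Mt1 (chr8:94179054-94179083 and chr8:94179088-94179117) and Slc30a1 (chr1:191906726-191906755 and chr1:191906799-191906828) only 30 bases around the matches are given.
Mt2: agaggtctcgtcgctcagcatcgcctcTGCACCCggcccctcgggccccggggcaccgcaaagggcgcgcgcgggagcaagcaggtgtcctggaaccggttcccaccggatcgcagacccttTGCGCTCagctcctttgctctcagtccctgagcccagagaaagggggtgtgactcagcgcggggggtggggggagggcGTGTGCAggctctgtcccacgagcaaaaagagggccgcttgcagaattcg
Mt1 first stretch: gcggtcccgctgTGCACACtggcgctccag
Mt1 other stretch: ctcTGCACTCcgcccgaaaagTGCGCTCgg
Slc30a1 first stretch: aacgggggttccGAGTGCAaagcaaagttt
Slc30a1 other stretch: cgcctccgggccGAGCGCAgtcgccgcgga

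Windows of 300 bases, 250 before and 50 after a start site, were searched for all genes in the RefSeq promoter table. The Mt2 window held 4 separate matches to the metal response element core, the Mt1 window 3 and the Slc30a1 window 2. The Mt2 stretch above shows 3 of its 4, as the remaining match is not wholly within the 250 bases before the start site. In the other stretches of Mt1 and Slc30a1 the matches lie after the start site (distance 3 and 31 bases). Of 32851 windows in the table, 25.7% held at least 1 such match, 6.14% at least 2, 1.31% at least 3 and 0.295% at least 4. Of the 40 listed genes 31 had 48 windows in the table, and 29.2% of those windows held a match. In all, 14 genes had a matching window. Besides Mt1, Mt2 and Slc30a1 they were Tfrc (in 1 of its 2 windows), Atp7a, Flvcr1, Slc30a4, Slc30a5 and Steap1, which were called higher or lower. Aco1, Atp7b, Ncoa4, Slc39a8 and Steap2 also had a matching window and were not called. The core of the antioxidant response element, TGACNNNGC, stood in 20.8% of the listed genes' windows and 12.4% of all windows. The E-box CACGTG stood in 6.25% and 7.15%. These matches describe the letters of the windows and are not evidence of binding. The 9 genes without a window were Slc40a1, Slc11a2, Trf, Heph, Hmox1, Slc48a1, Slc39a4, Slc39a6 and Slc39a14.

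After TKI258, 9 of the 39 metal genes were higher, 10 were lower and 20 did not pass the test. Of the iron export and ferroxidase genes Slc40a1 and Cp were higher and Heph did not pass. Ferritin light chain (Ftl1) and heme oxygenase (Hmox1) were higher, and Flvcr1 was lower. Of 7 measured iron uptake genes the transferrin receptor gene (Tfrc) and Steap1 were lower, Steap3 was higher and 4 did not pass. Of 10 listed zinc transporter genes 7 were lower and 0 higher. Over all 24 genes of both zinc transporter families 7 were lower, 1 was higher and 16 did not pass. Both listed metallothionein genes were higher. Of the 39 metal genes 23.1% were called higher, 25.6% lower and 48.7% in either direction, against 14.4%, 12.6% and 27% of all genes. When only genes brighter than the median probe set were fitted, 22 of 32 metal genes passed, or 68.8%, against 52.2% of all such genes. The groups did not overlap in 27 of the 39 metal genes, or 69.2%, and in 40.2% of all genes. The median difference was 0.046 for the 39 genes and 0.015 for all genes.

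**Figure D1:**
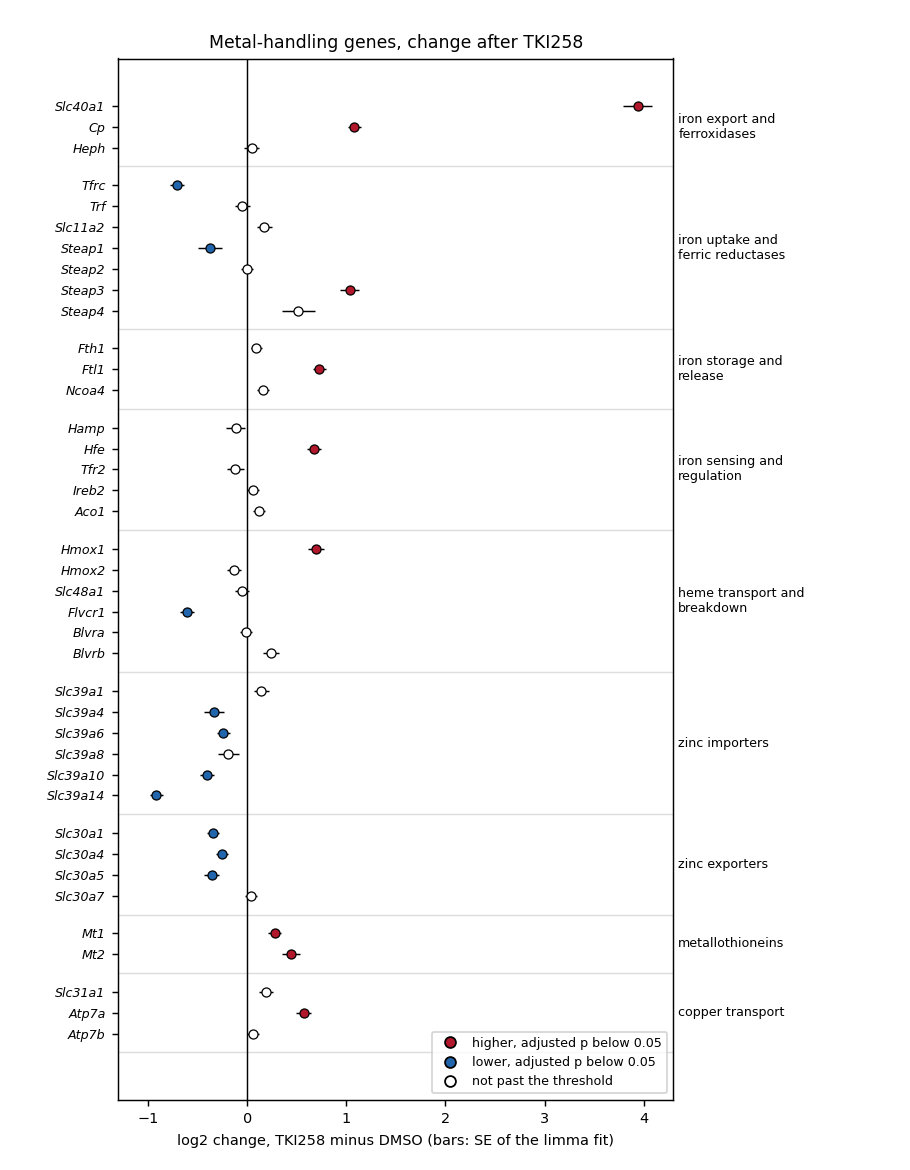
Log2 change after TKI258 (TKI258 minus DMSO, n = 3 arrays each) of 39 metal-handling genes, grouped by role, with bars for the SE of the limma fit and filled points for genes past the threshold. Slc40a1 stands far to the right of the others at 3.94, and the filled points of the zinc transporter rows lie to the left of 0.

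Slc40a1 encodes ferroportin, the iron exporter of the cell surface. Its log2 signal was 7.31, 7.58 and 7.78 on the TKI258 arrays, against 3.53, 3.42 and 3.90 on the DMSO arrays. The lowest TKI258 array lay 3.41 above the highest DMSO array. The difference was 3.94 (SE 0.144, limma adjusted p = 6.61e-07), or 15.3-fold, and it ranked highest of all 19938 genes. The DMSO mean of 3.62 was dim, and the table has no detection calls to say whether it lay above background. If it did not, the fold is a lower bound, and the same limit applies to the rank.

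Of the genes for ferroxidases, which load exported iron onto transferrin, Cp passed. Cp, the copper-containing ferroxidase ceruloplasmin and also an acute-phase protein, had 11.89, 11.86 and 11.80 on the TKI258 arrays, against 10.75, 10.85 and 10.71 on the DMSO arrays. It was bright in every array and rose by 1.08 (SE 0.067, limma adjusted p = 7.16e-06), or 2.11-fold. Heph, the membrane-bound ferroxidase hephaestin, was dim in both groups, averaged 3.39 ± 0.12 (SD, n = 3) and 3.34 ± 0.010 (SD, n = 3) in TKI258 and DMSO cells, and did not pass (difference 0.046, adjusted p = 0.732). Whether Cp and Heph differed in their response was not tested.

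On the uptake side, Tfrc, the transferrin receptor, was 11.73, 11.64 and 11.60 on the TKI258 arrays and 12.41, 12.40 and 12.28 on the DMSO arrays. Every TKI258 array lay below every DMSO array. The gene fell by 0.71 (SE 0.068, limma adjusted p = 7.86e-05). Trf, the gene of transferrin itself, was dim in both groups and did not pass (difference -0.048, adjusted p = 0.727). Slc11a2, which encodes DMT1 and carries ferrous iron out of endosomes, had a difference of 0.17 (SE 0.073, adjusted p = 0.12) without overlap between the groups.

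The 4 genes of the STEAP family, which includes ferric reductases, split. Steap3, the endosomal reductase that serves transferrin uptake, was 9.26, 9.46 and 9.67 on the TKI258 arrays and 8.46, 8.43 and 8.40 on the DMSO arrays. It rose by 1.03 (SE 0.099, limma adjusted p = 7.51e-05), with an SD of 0.21 in TKI258 cells and 0.031 in DMSO cells (n = 3 each). Steap1 was 8.21, 8.60 and 8.70 on the TKI258 arrays and 8.81, 8.86 and 8.96 on the DMSO arrays. These groups were close, and Steap1 fell by 0.37 (SE 0.119, limma adjusted p = 0.0452). The call on Steap1 was lost when any array other than TKI258 replicate 3 was left out, with adjusted p of 0.0695 and 0.0542 without TKI258 replicates 1 and 2, and 0.0736, 0.0952 and 0.141 without DMSO replicates 1, 2 and 3. Without TKI258 replicate 1 its difference was -0.23.

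Steap2, the next protein-coding gene to Steap1 on chromosome 5, had a difference of -0.0014 (SE 0.060, limma adjusted p = 0.991). Steap4, dim in both groups, was 4.05, 4.59 and 4.79 on the TKI258 arrays and 3.80, 4.09 and 3.99 on the DMSO arrays. The groups overlapped through TKI258 replicate 1, and the difference of 0.51 (SE 0.17) did not pass, with an adjusted p of 0.0504. Without TKI258 replicate 1 the difference was 0.73 with an adjusted p of 0.00157.

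Ferritin stores iron in a shell of heavy and light chains, and of their genes Ftl1 passed. Ftl1, the light chain gene, was 12.47, 12.51 and 12.55 on the TKI258 arrays and 11.79, 11.70 and 11.85 on the DMSO arrays. It rose by 0.73 (SE 0.066, limma adjusted p = 5.61e-05), or 1.66-fold. Fth1, the heavy chain gene with the ferroxidase site, was 13.008, 12.989 and 13.002 on the TKI258 arrays and 12.915, 12.910 and 12.895 on the DMSO arrays. The Fth1 groups did not overlap, but the difference of 0.093 (SE 0.058) did not pass (adjusted p = 0.310). This SE is moderated by the variance of all genes, while the SDs were 0.0095 in TKI258 cells and 0.011 in DMSO cells. The non-call depended on the variance model. Fth1 passed with its own variance alone (adjusted p = 0.00658) and in limma with trend and robust variance (adjusted p = 0.0153). Whether the 2 chains differed from each other in their response was not tested. Ncoa4, which delivers ferritin to lysosomes for breakdown, had a difference of 0.16 (adjusted p = 0.0873), and its other probe set had 0.15.

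Of 5 genes of iron sensing and its hormonal control, only Hfe passed, or 20%, against 27% of all genes. HFE is an MHC class I-like protein that binds the transferrin receptor and takes part in hepcidin control in the liver. It was 6.78, 6.62 and 6.60 on the TKI258 arrays and 6.01, 5.95 and 6.03 on the DMSO arrays. Hfe rose by 0.67 (SE 0.072, limma adjusted p = 0.000139). The genes of the iron regulatory proteins, Aco1 (IRP1) and Ireb2 (IRP2), had differences of 0.12 and 0.060 and did not pass (adjusted p = 0.176 and 0.579). Hamp, the hepcidin gene, and Tfr2, the second transferrin receptor gene, were dim in both groups, with differences of -0.11 and -0.12 that did not pass.

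**Figure D2:**
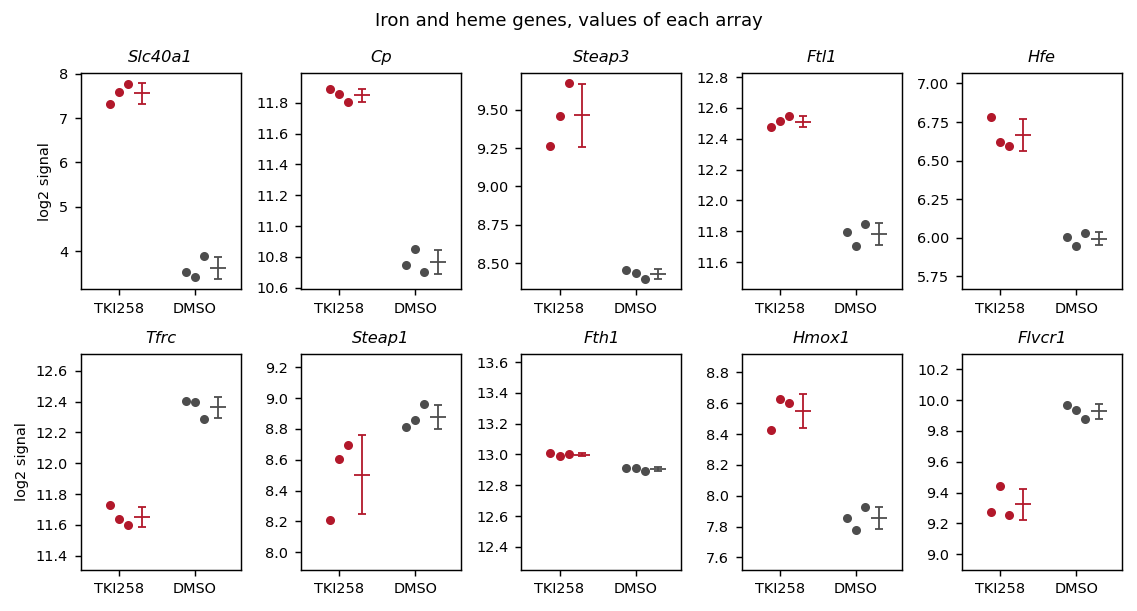
Log2 signal of each array for 10 iron and heme genes, TKI258 arrays in red and DMSO arrays in grey, with the group mean and SD (n = 3) beside the points. Each panel has its own vertical axis, so heights are not comparable between genes. The groups are separate in every panel, with the narrowest gaps in Fth1 and Steap1.

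Among 6 heme genes 1 rose and 1 fell, so 33.3% passed, against 27% of all genes. Hmox1, the inducible heme oxygenase that releases iron from heme, was 8.42, 8.63 and 8.60 on the TKI258 arrays and 7.86, 7.78 and 7.93 on the DMSO arrays. It rose by 0.70 (SE 0.077, limma adjusted p = 0.000170). Flvcr1, described as a heme exporter and more recently as a choline transporter, was 9.28, 9.44 and 9.26 on the TKI258 arrays and 9.97, 9.94 and 9.88 on the DMSO arrays. Flvcr1 fell by 0.60 (SE 0.072, limma adjusted p = 0.000268), and its other probe set, tested among all probe sets, fell by 0.24 (adjusted p = 0.0476).

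The constitutive heme oxygenase gene Hmox2 had a difference of -0.13 (adjusted p = 0.196), and the lysosomal heme transporter gene Slc48a1 had -0.052. The biliverdin reductase genes Blvra and Blvrb, which act after heme oxygenase, had -0.0099 and 0.24. Blvrb lay just outside the threshold with an adjusted p of 0.0501, and its groups did not overlap. Without TKI258 replicate 2 the difference in Blvrb was 0.31 with an adjusted p of 0.0208.

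Of the 6 listed zinc importers 4 fell, or 66.7%, against 12.6% of all genes, and 0 rose. The list was drawn up with results known, and of 8 further importers 0 fell and 1 rose. Slc39a14 (ZIP14), which also carries iron not bound to transferrin, was 8.08, 8.10 and 8.18 on the TKI258 arrays and 9.06, 9.05 and 8.99 on the DMSO arrays. It fell by 0.91 (SE 0.064, limma adjusted p = 1.24e-05), with a gap of 0.81 between the nearest arrays of the groups. Slc39a10 (ZIP10) was 8.91, 8.995 and 8.87 on the TKI258 arrays and 9.41, 9.31 and 9.26 on the DMSO arrays. It fell by 0.40 (SE 0.069, limma adjusted p = 0.00211).

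Slc39a6 (ZIP6), a relative of ZIP10, was 8.32, 8.29 and 8.25 on the TKI258 arrays and 8.48, 8.53 and 8.56 on the DMSO arrays. It fell by 0.24 (SE 0.061, limma adjusted p = 0.0169), a call lost without DMSO replicate 2 (adjusted p = 0.0625) or DMSO replicate 3 (adjusted p = 0.0644). Slc39a4 (ZIP4), the main zinc importer of the intestine, was 5.54, 5.73 and 5.88 on the TKI258 arrays and 6.19, 5.91 and 6.06 on the DMSO arrays. The nearest arrays of the Slc39a4 groups were only 0.027 apart. Its fall of 0.33 (SE 0.103, limma adjusted p = 0.0398) did not pass without TKI258 replicate 1 or 2 (adjusted p = 0.117 and 0.0817) or without DMSO replicate 1 or 3 (adjusted p = 0.142 and 0.102). Slc39a1 had a difference of 0.14 and the dim Slc39a8 of -0.19, neither past the threshold (adjusted p = 0.219 and 0.234). Without TKI258 replicate 2, Slc39a8 had -0.30 with an adjusted p of 0.0353.

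Of the 4 listed zinc exporters 3 fell, or 75%, against 12.6% of all genes, and 0 rose. Of 6 further exporters 0 fell and 0 rose. Slc30a5 (ZnT5), which loads zinc into the early secretory pathway, was 9.15, 9.30 and 9.39 on the TKI258 arrays and 9.60, 9.62 and 9.69 on the DMSO arrays. It fell by 0.36 (SE 0.078, limma adjusted p = 0.00753). Slc30a1 (ZnT1), the exporter of the cell surface, was 6.88, 6.87 and 6.92 on the TKI258 arrays and 7.20, 7.26 and 7.23 on the DMSO arrays. The arrays of each group lay close together, and Slc30a1 fell by 0.34 (SE 0.060, limma adjusted p = 0.00233).

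Slc30a4 (ZnT4), which supplies zinc to milk in the mammary gland, was 9.89, 9.87 and 9.87 on the TKI258 arrays and 10.13, 10.16 and 10.10 on the DMSO arrays. It fell by 0.25 (SE 0.059, limma adjusted p = 0.0118), and without DMSO replicate 2 the adjusted p was 0.0545. Slc30a7 had a difference of 0.040 and did not pass (adjusted p = 0.730). Over all 24 zinc transporter genes of both families, the 10 above and 14 others, 7 fell, 1 rose and 16 did not pass, with a median difference of -0.14. All 7 falls were among the 10 listed genes, and 0 of the 14 others fell. Of the 24 genes 33.3% passed, against 27% of all genes. The falls in zinc transporter genes kept their sign with renewed quantile normalization. Centring arrays on their medians shifts the difference of every gene alike (Slc30a1 from -0.34 to -0.37), so it was no test of their sign.

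The metallothionein genes, neighbours on chromosome 8, moved the other way. Mt2 was 11.75, 11.69 and 12.002 on the TKI258 arrays and 11.33, 11.34 and 11.44 on the DMSO arrays. It rose by 0.44 (SE 0.090, limma adjusted p = 0.00510), with an SD of 0.17 in TKI258 cells and 0.060 in DMSO cells. The call on Mt2 held whichever array was left out. It was lost with the gene's own variance alone (adjusted p = 0.055) and against a minimum fold of 1.2 (treat adjusted p = 0.272). Mt1 was 12.05, 12.02 and 12.12 on the TKI258 arrays and 11.80, 11.73 and 11.83 on the DMSO arrays. Mt1 rose by 0.28 (SE 0.064, limma adjusted p = 0.0105), a call lost without DMSO replicate 2, where the adjusted p was 0.0515. The 2 mRNAs are close relatives, and cross-reading between their probes was not tested.

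Of the 3 copper genes only Atp7a passed, or 33.3%, against 27% of all genes. Atp7a encodes the copper pump whose loss causes Menkes disease in humans. It was 7.76, 7.76 and 7.69 on the TKI258 arrays and 7.25, 7.21 and 7.04 on the DMSO arrays. Atp7a rose by 0.57 (SE 0.073, limma adjusted p = 0.000400). Slc31a1, the high-affinity copper importer, had a difference of 0.19 without overlap between the groups (adjusted p = 0.0713). Atp7b was dim in both groups and had a difference of 0.062 (adjusted p = 0.542).

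**Figure D3:**
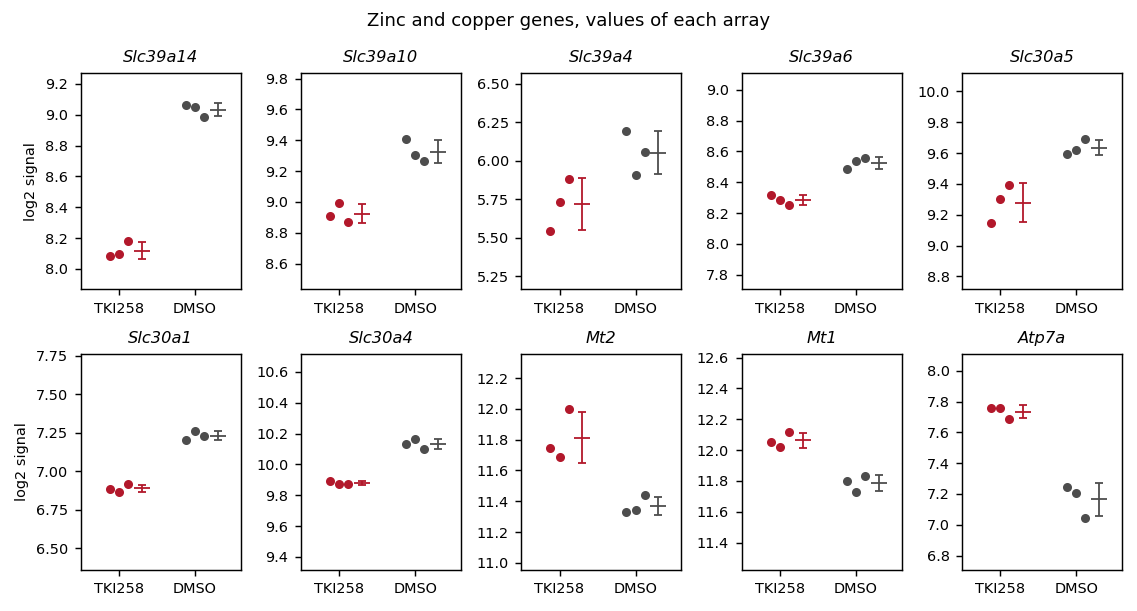
Log2 signal of each array for 7 zinc transporter genes, 2 metallothionein genes and Atp7a, TKI258 arrays in red and DMSO arrays in grey, with group mean and SD (n = 3). Vertical axes differ between panels. The TKI258 arrays are the lower ones in the 7 transporter panels and the higher ones in Mt2, Mt1 and Atp7a.

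Other genes of metal handling were taken from 10 further lists, 96 genes measured of 101. Of these 19 rose, 8 fell and 69 did not pass, so 28.1% passed, against 27% of all genes. Their median difference was 0.030. Among 8 heme synthesis genes 3 rose and 2 fell. Fech, which inserts iron in the last step, rose by 0.36 (limma adjusted p = 0.00201) and Urod by 0.36, while Cpox and Alad fell by 0.32 and 0.30. The call on Alad was lost without TKI258 replicate 2 (adjusted p = 0.0538) or DMSO replicate 3 (adjusted p = 0.0592). Among 9 other heme transport and binding genes, Hp, the hemoglobin-binding acute-phase protein haptoglobin, rose by 1.70 (SE 0.167, limma adjusted p = 8.43e-05), with 6.43, 6.60 and 7.13 on the TKI258 arrays and 5.04, 5.18 and 4.83 on the DMSO arrays.

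Of 14 genes of iron-sulfur cluster assembly and mitochondrial iron 2 fell and 1 rose, so 21.4% passed, against 27% of all genes. Slc25a37, the mitochondrial iron importer mitoferrin 1, fell by 0.60 (limma adjusted p = 0.000198), Glrx5, which passes on iron-sulfur clusters, fell by 0.58, and the co-chaperone gene Hscb rose by 0.46. Of 15 other iron transport and chaperone genes 4 rose and 1 fell, so 33.3% passed. Mcoln1, a lysosomal channel that releases iron among other cations, rose by 0.47 (limma adjusted p = 0.000846), the siderophore-binding lipocalin gene Lcn2 by 0.29 and Lrp1, an uptake receptor for the heme-hemopexin complex, by 0.61. The iron chaperone gene Pcbp1 fell by 0.31. Without DMSO replicate 3 the adjusted p of Lrp1 was 0.0600. Of 13 genes of BMP signalling and hepcidin control 4 rose and 0 fell, so 30.8% passed, against the same 27% of all genes. Among them were the inhibitory SMAD gene Smad6 at 0.77 (limma adjusted p = 0.000185), Tmprss6, the liver protease that lowers hepcidin, at 0.43, and the receptor genes Bmpr2 and Acvr1 at 0.43 and 0.24. Acvr1 did not pass without TKI258 replicate 1, DMSO replicate 1 or DMSO replicate 3 (adjusted p = 0.0592, 0.0633 and 0.0789).

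Outside the listed zinc genes, Slc39a3 rose by 0.28 (limma adjusted p = 0.0123) among 8 further importers, and 0 of 6 further exporters passed, with Slc30a6 at -0.23 (adjusted p = 0.0509) and Slc30a10 at -0.17. Mt3 and Mt4 had 0.056 and 0.13 and did not pass. Among 11 further copper genes 1 rose and 3 fell, so 36.4% passed, against 27% of all genes. Slc31a2, a relative of the copper importer found in endosomes and lysosomes, was 10.30, 10.12 and 10.37 on the TKI258 arrays and 8.77, 8.79 and 8.88 on the DMSO arrays. It rose by 1.45 (SE 0.080, limma adjusted p = 3.83e-06). The genes Sco1, Cox11 and Cox17, which bring copper to cytochrome c oxidase, fell by 0.36, 0.34 and 0.25. The Cox17 call held only without TKI258 replicate 3 among the 6 arrays left out in turn, with adjusted p of 0.0521 to 0.0807 without each of the others.

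A list of 11 genes held transcription factors known to act on metal genes and the regulator gene Keap1. Of these 4 rose and 0 fell, so 36.4% passed, against 27% of all genes. Bach1, a heme-sensing repressor of Hmox1 and of the ferritin and ferroportin genes, rose by 0.43 (SE 0.062, limma adjusted p = 0.000791). Arnt, the partner of hypoxia-inducible factors, rose by 0.40, Tfeb by 0.27 and Hif1a by 0.23. Tfeb did not pass without DMSO replicate 1 or 2 (adjusted p = 0.0643 and 0.0563), nor Hif1a without TKI258 replicate 2, DMSO replicate 1 or DMSO replicate 3 (adjusted p = 0.0688, 0.0769 and 0.0728). Mtf1 itself had a difference of -0.0049 (adjusted p = 0.980) and Nfe2l2, an activator at antioxidant response elements, of 0.15 (adjusted p = 0.0949). Mtf1 and Nfe2l2 were named after their values were seen.

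**Figure D4:**
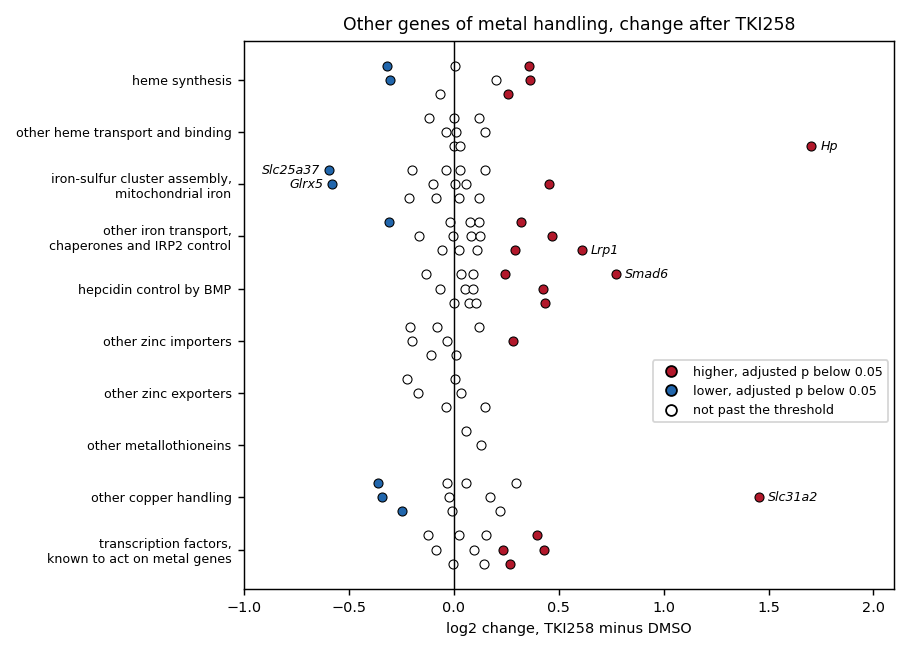
Log2 change (TKI258 minus DMSO) of 96 other metal-handling genes in 10 lists, 1 point per gene, filled where past the threshold. Mt3 is in 2 lists. Hp at 1.70 and Slc31a2 at 1.45 lie far from the rest, and most points are within 0.5 of 0.

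The labelled cell type was checked on markers. All 6 mammary epithelial markers were above the median probe set in mean signal, but 4 of them changed. Cdh1 (E-cadherin) and Krt19 rose by 1.09 and 0.94, Krt18 and Krt7 fell by 0.50 and 0.39, and Krt8 and Epcam did not pass (differences -0.11 and -0.041). The summed linear signal of the epithelial list was 7265 to 7905 on TKI258 arrays and 7764 to 8545 on DMSO arrays. Macrophages, hepatocytes and erythroid cells also express many of the metal genes. Of 9 macrophage markers 7 were dim, Ptprc, Csf1r and Adgre1 among them, while Cd68 and Cd14 rose by 0.82 and 0.74. The summed linear signal of the macrophage list was 324 to 433 on TKI258 arrays and 254 to 271 on DMSO arrays. Of 5 hepatocyte markers 4 were dim, Alb and Ttr included, and their sums were 82.7 to 84.4 and 76.6 to 80.5 on TKI258 and DMSO arrays. All 4 measured erythroid markers were dim, with sums of 91.1 to 101.0 and 88.8 to 100.04. Of 8 fibroblast markers Dcn and Pdgfra rose by 2.01 and 1.499 and the other 6 did not pass. In mean signal 3 of the 8 were dim, Dcn among them. The sums were 1172 to 1247 on TKI258 arrays and 554 to 587 on DMSO arrays. Pdgfra, the brightest of the 8 (means 9.83 and 8.33 on TKI258 and DMSO arrays), weighed most in these sums. The part of these markers in the results above was not tested.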

How the data were processed

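Each of the 6 arrays measured RNA of 1 sample of cultured cells, and the deposited file gives a log2 signal for each of 35557 probe sets. The submitters' processing notes list RMA, affy and limma, with neither version nor role. The log2 scale was inferred from the range of the deposited values. If RMA was run as usual, its common distribution for all arrays would remove any shift common to all genes and shrink changes of dim probe sets. The table holds no detection calls, and precision is limited by having 6 arrays.

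Gene symbols came from the 2016 platform annotation, in which 21789 had 1 symbol, 1621 several and 12147 none. All 39 measured members were found by gene ID in RefSeq's gene table (GRCm38.p6), with 0 changed symbols. That table gave names and neighbours only, and promoter sequences came from RefSeq's promoter table. The comparison of TKI258 and DMSO used limma 3.58.1 and R 4.3.3 (lmFit and eBayes, treatment as the only term, no filter) on the brightest probe set per gene, two-sided, with Benjamini-Hochberg adjustment over 19938 genes. The fit was tested on simulated data. The p-values rest on the spread between samples labelled as biological replicates, moderated by eBayes with the variance of all genes. Whether these samples were separate experiments is not stated in the labels.

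Members and lists were chosen with earlier results of these data known. All members are reported. In each other list up to 4 passing genes with the smallest adjusted p are named, or 2 where 0 passed. Replicate numbers were not taken to pair the arrays, and the labels do not say whether they do. Other settings tried were a replicate block, leaving out each array, quantile normalization, median centring, a filter on dim genes, averaged probe sets, other variance models, an adjusted p of 0.01, a minimum fold of 1.2 (treat) and single probe sets.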

Additional observations from a re-analysis of the deposited data

Results flagged for a closer look

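Probe sets outside the gene-level comparison gave a signal above the DMSO arrays for 1 metal gene. For Ftl1, 4 further probe sets are annotated to Ftl1 together with the microRNA genes Mir692-2 and Mir692-3, and they were left out because they carry several symbols. Tested among all probe sets in limma, their log2 differences (TKI258 minus DMSO) were 0.69, 0.68, 0.67 and 0.67, with adjusted p of at most 0.00477, against 0.73 for the probe set used above. The 4 probe sets share a target with it and with each other, so they are not independent measurements. Ferritin light chain sequences occur in several copies in the mouse genome, and which copies each probe set reads was not tested.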

How the results depend on the processing

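Of the 19 metal genes past the threshold, 14 stayed past it whichever array was left out. In all alternatives 10 passed, namely Slc40a1, Cp, Tfrc, Steap3, Ftl1, Hfe, Hmox1, Flvcr1, Slc39a14 and Atp7a. Of the 19, 0 changed sign in any alternative. The block, the dim-gene filter, the variance models, the 0.01 threshold and the minimum fold leave the differences as they are and could not turn a sign. With 1 array left out, 8 to 10 metal genes were higher and 7 to 10 lower, against 9 and 10 with all arrays. With trend and robust variance 14 were higher. At an adjusted p below 0.01, 6 metal genes were lower, and 12 and 5 of the other pathway genes were higher and lower. Against a minimum fold of 1.2, 3 metal genes were lower, 3 and 2 of the other pathway genes were higher and lower, and over all genes 1057 were higher and 864 lower, since small changes are below that fold. Of 20 metal genes not past the threshold 7 passed in some alternative, namely Steap4, Blvrb, Ncoa4, Slc31a1, Fth1, Aco1 and Slc39a8. Small differences that did not pass turned sign. With 1 array left out, Blvra ranged from -0.033 to 0.013, Heph from -0.024 to 0.082, Trf from -0.11 to 0.0082 and Steap2 from -0.015 to 0.018. With renewed quantile normalization Blvra had 0.029 and Steap2 0.047. Steap2 had 0.0096 with the mean of its probe sets and 0.021 in its other probe set.

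With the replicate number as a block, 11 metal genes were higher and 9 lower. Arrays of the same number correlated at 0.0181, 0.0501 and 0.151 in their deviations from the group means. For TKI258 replicates 2 and 3 the best-matching DMSO array had the same number, and for replicate 1 it did not. The numbers were not taken to pair the arrays, and whether they do is not stated in the labels.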
